A study of Mus musculus with 2 samples.

Results

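Mcm2, Mcm3, Mcm4, Mcm5, Mcm6 and Mcm7 encode the subunits of the MCM2-7 complex, the helicase that opens DNA at the replication fork. Their rows were taken from the expression table by Ensembl identifier, so they are 6 of the 10666 genes measured. They were followed along the cell cycle in single-cell RNA-seq data of neurospheres, balls of neural stem and progenitor cells grown in suspension, from the dorsal telencephalon of wild-type C57BL/6 mouse embryos at embryonic day 14.5. The neurospheres grew in medium with 10 ng/ml EGF and 10 ng/ml bFGF. There were 2 replicate cultures of this 1 condition, with 5748 cells in culture 1 and 7057 cells in culture 2, and the number of embryos behind each culture is not given in the sources used here. Every statement below is therefore a description with both cultures side by side, without a test between groups.

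As background, the 6 subunits form a ring, and pairs of rings are placed on DNA at replication origins before S phase with the help of the origin recognition complex, Cdc6 and Cdt1. The loaded rings are inactive until kinases and the factors Cdc45 and GINS turn them into moving helicases at the onset of S phase. All subunits belong to the AAA+ ATPases and are related to each other in sequence. The complex is widely used as a mark of cells that are licensed to divide, including the progenitors of the embryonic cortex.

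The median depth was 19477 total UMIs per cell in culture 1 and 14637 in culture 2. Progenitor markers were near universal, with Fabp7 detected in 100% and 99.96% of cells, Vim in 99.2% and 99.9% and Nes in 93.3% and 89.8%, whereas Pax6 was detected in 21.1% and 23.1%. Olig2, a marker of the oligodendrocyte lineage, was detected in 97.3% and 91.9% of cells. Other measured markers of this lineage were rarer, with Cspg4 in 11.8% and 13.7%, Pdgfra in 8.77% and 1.81% and Sox10 in 4.26% and 0.75%. Dcx, a marker of neuroblasts, was detected in 7.34% and 1.56%. None of the progenitor, neuroblast, oligodendrocyte lineage and astroglial markers measured was called periodic by the rule given below, and microglial, endothelial, red blood cell and intermediate progenitor markers were not analysed here. Barcodes of 48 cells occurred in both cultures, and removing these cells left the median position of the subunits' maxima at 0.6825π.

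In the GRCm38 build, the genes lie apart from each other on 5 chromosomes, with Mcm3 and Mcm6 on chromosome 1 far from each other. Mcm2 lies at chr6:88883474-88898780, Mcm3 at chr1:20802968-20820312, Mcm4 at chr16:15623897-15637400, Mcm6 at chr1:128331590-128359664 and Mcm7 at chr5:138164583-138172422, all on the minus strand, and Mcm5 at chr8:75109569-75128439 on the plus strand. Mcm7 carries the microRNA genes Mir25, Mir93 and Mir106b within its span on the same strand, and its ends overlap Cops6 and Ap4m1 on the opposite strand. Reads within the overlaps with Cops6 and Ap4m1 could only be told apart if the counting used the strand, which is not stated.

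The promoter sequences are shown because 3 of the 6 genes share a run of letters. A link to their course along the cell cycle was not tested. RefSeq windows of the GRCm38.p6 build, from 250 bases before to 50 bases after each transcription start, were at hand for 5 of the 6 genes, with 2 windows for Mcm7. They were searched on both strands for the E2F-like words TTCCCGC or TTGGCGC or TTCGCGC or TTGCCGC and for the word CCAAT. These words may overlap each other. The lines below give the runs in which E2F-like matches overlap, and the only match of Mcm2. They are printed 5′ to 3′ on the strand of the gene, and capitals mark the joined E2F-like matches or, for Mcm2, CCAAT read as ATTGG.
Mcm3 (chr1:20820263-20820282, minus strand, within the 5′ exon): tgggaagttTTGGCGCCAAg
Mcm5 (chr8:75109348-75109375, plus strand, upstream of the gene): ccaagaactTTCGCGCCAAaacgtccag
Mcm6 distal (chr1:128359796-128359823, minus strand, upstream of the gene): cgtatgcttTTGGCGCGAAaagtgcgtg
Mcm6 proximal (chr1:128359733-128359760, minus strand, upstream of the gene): tggacgggtTTGGCGCGAAgtagctcag
Mcm7 (chr5:138171848-138171875, minus strand, within the 5′ exon): tgacgacgtTTCGCGCCAAtttcggttg
Mcm2, CCAAT only (chr6:88898942-88898964, minus strand, upstream of the gene): gaaggccggATTGGtcctcagag

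E2F-like words were found in the windows of Mcm3, Mcm5, Mcm6 and Mcm7, that is in 4 of 5 genes, and not in the window of Mcm2. The share was 10.9% of the 27025 genes with a window and 21.2% of the 8318 such genes in the expression table. It was 44.6% of the genes called periodic by the rule given below and 60.8% of those with their maximum between 0.5π and 0.75π, the subunits included. CCAAT was found in all 5 genes, against 41.1% of all genes with a window, 61.8% of the called genes and 62.2% of those with their maximum between 0.5π and 0.75π. The same run of 10 bases (TTGGCGCGAA, read as TTCGCGCCAA on the other strand) stood in Mcm5, Mcm6 and Mcm7, and at 2 places in Mcm6. It was picked out after the windows had been read. Across all windows, 20 genes held it, which is 0.0740%, and 14 of them were in the expression table. Among the called genes 4 held it (1.17%), and among those with their maximum between 0.5π and 0.75π also 4 (5.41%), the subunits included. The CCAAT word of Mcm7 at this place overlaps the run. A match is a description of the letters in these windows and was not tested as a binding site.

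The next comparison asked how the level of each subunit changes along the deposited cell-cycle position, an angle from 0 to 2π that the authors derived from cell-cycle genes. The authors aligned the 2 cultures to each other before learning the space behind this angle, so the cultures are not fully independent along it. Of the cells between 0.5π and 0.75π, 99.2% in culture 1 and 99.0% in culture 2 had the deposited Seurat stage S. Between 1π and 1.25π, 98.4% and 99.1% were G2M, and between 1.75π and 2π, 99.9% and 99.3% were G1. The deposited expression value is a UMI signal scaled for the depth of each cell, called the value below. A periodic loess line of log2(value + 1) was fitted in each culture, R² is the share of the variance among cells that the line takes up, and a gene was called periodic where R² was at least 0.05 in both cultures.

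All 6 subunits were called periodic, where 3.9% of all genes were (416 of 10666). All 6 lines had their maximum between 0.5π and 0.75π. Genes that were called periodic and had their maximum in this window made up 0.816% of all genes, and 0.844% with the window from 0.25π to 0.75π. The window held all 6 at the span of 0.3 used here, but not at other spans of the line. With a span of 0.5 the mean maxima of Mcm2, Mcm5 and Mcm7 lay at 0.8075π, 0.81π and 0.83π, and with a span of 0.1 that of Mcm2 lay at 0.7625π. The lower R² of the cultures ran from 0.173 for Mcm4 to 0.388 for Mcm3, which ranked 153 and 37 among all genes. The position was built from cell-cycle genes that may include the subunits, so R² is not independent of them. With a position recomputed in each culture from 500 cell-cycle genes without the subunits, whose circular correlation with the deposited one was 0.928 in culture 1 and 0.927 in culture 2, all 6 were again called and their maxima lay between 0.61π for Mcm3 and 0.6875π for Mcm7.

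**Figure D1:**
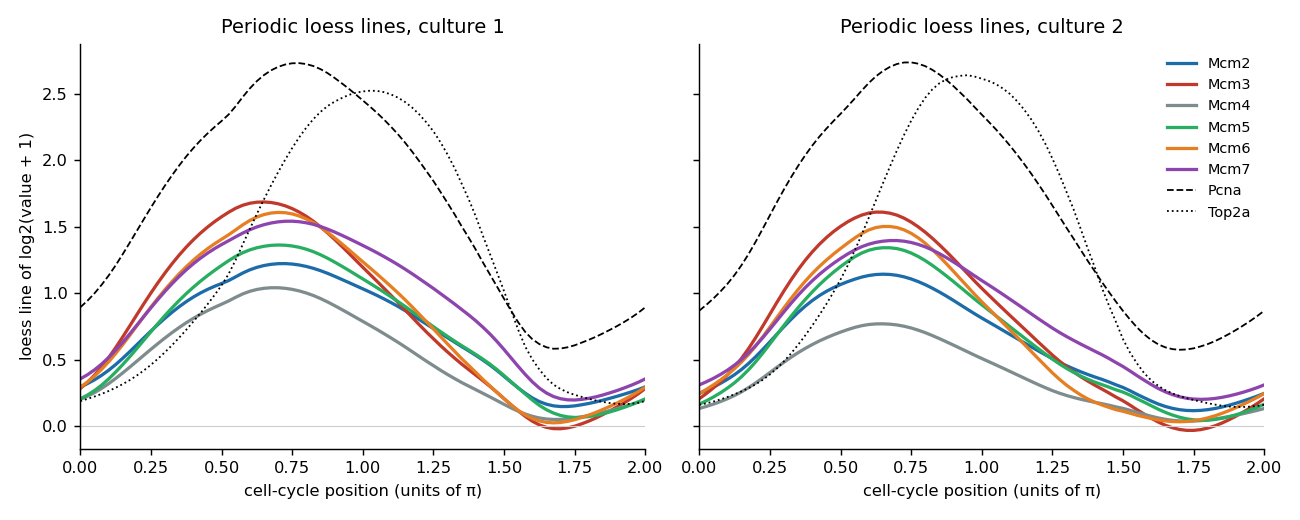
Periodic loess lines of log2(value + 1) for the 6 subunits, Pcna and Top2a against the cell-cycle position in units of π, with culture 1 on the left and culture 2 on the right. The lines of the subunits peak together between 0.635π and 0.74π, ahead of Top2a, and that of Mcm7 comes down last.

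Mcm3, which sits between Mcm5 and Mcm7 in the ring, had the earliest maximum and the tallest line. Its maximum stood at 0.645π and 0.635π (culture 1, then culture 2), and the height of its line, highest minus lowest point on the log2 scale, was 1.71 and 1.65. Mcm7 had the latest maximum, at 0.74π and 0.69π. The maxima of Mcm4, Mcm5, Mcm6 and Mcm2 fell between these, at 0.6675π, 0.6825π, 0.6825π and 0.685π as the mean of both cultures. These neighbours differed by less than the SD between cultures of 0.0318π to 0.0424π. All 6 maxima lay earlier in culture 2, by 0.01π (Mcm3) to 0.06π (Mcm2), so this SD includes a shared shift. Within the cultures, Mcm4 peaked before Mcm5 and Mcm6, at 0.69π against 0.705π in culture 1 and 0.645π against 0.66π in culture 2. Over all 6, the maxima spread by 0.075π, and by 0.2π with a span of 0.5, so the small differences in timing rest on the span. For comparison, the sliding clamp gene Pcna peaked at 0.7525π and the topoisomerase gene Top2a at 0.99π.

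The heights of the lines also differed between subunits. Mcm6, which sits between Mcm2 and Mcm4 in the ring, followed Mcm3 with a height of 1.59 in culture 1 and 1.47 in culture 2 on the log2 scale. Mcm5, which forms the gate of the ring with Mcm2, reached 1.299 and 1.3004, and Mcm7 1.35 and 1.20. Mcm2, whose amino-terminal tail binds histones, reached 1.08 and 1.03. Mcm4, part of the catalytic core with Mcm6 and Mcm7, had the lowest line, with 0.99 and 0.73. The heights rest on log2(value + 1), which compresses low levels, so the linear values follow.

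The cells were then divided by position into 8 arcs of 0.25π. In both cultures, every subunit had its highest mean value between 0.5π and 0.75π and its lowest between 1.75π and 2π. In culture 1 the next arc still held 99.6% of the highest mean for Mcm2, 97.5% for Mcm6 and 98.2% for Mcm7. The mean of log2(value + 1) was even higher there for Mcm2 (1.21 against 1.17) and Mcm7 (1.503 against 1.488). The top arc of Mcm2 and Mcm7 in culture 1 thus depends on the scale. Mcm3 had mean values of 2.57 in culture 1 and 2.72 in culture 2 in the highest arc against 0.129 and 0.0935 in the lowest, that is 19.9-fold and 29.1-fold. Mcm5 differed by 15.99-fold and 21.6-fold between these arcs, Mcm6 by 14.2-fold and 14.8-fold and Mcm4 by 11.7-fold and 13.3-fold. Mcm2 and Mcm7 had the smallest ratios, with 8.38-fold and 9.004-fold for Mcm2 and 8.86-fold and 7.96-fold for Mcm7. The order of the subunits by this ratio was therefore alike in both cultures, except that Mcm2 and Mcm7 changed places. The summed value of the 6 genes rose from 0.940 and 0.913 between 1.75π and 2π over 3.43 and 3.57 in the following arc and 8.07 and 8.28 between 0.25π and 0.5π to 11.6 and 12.4.

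**Figure D2:**
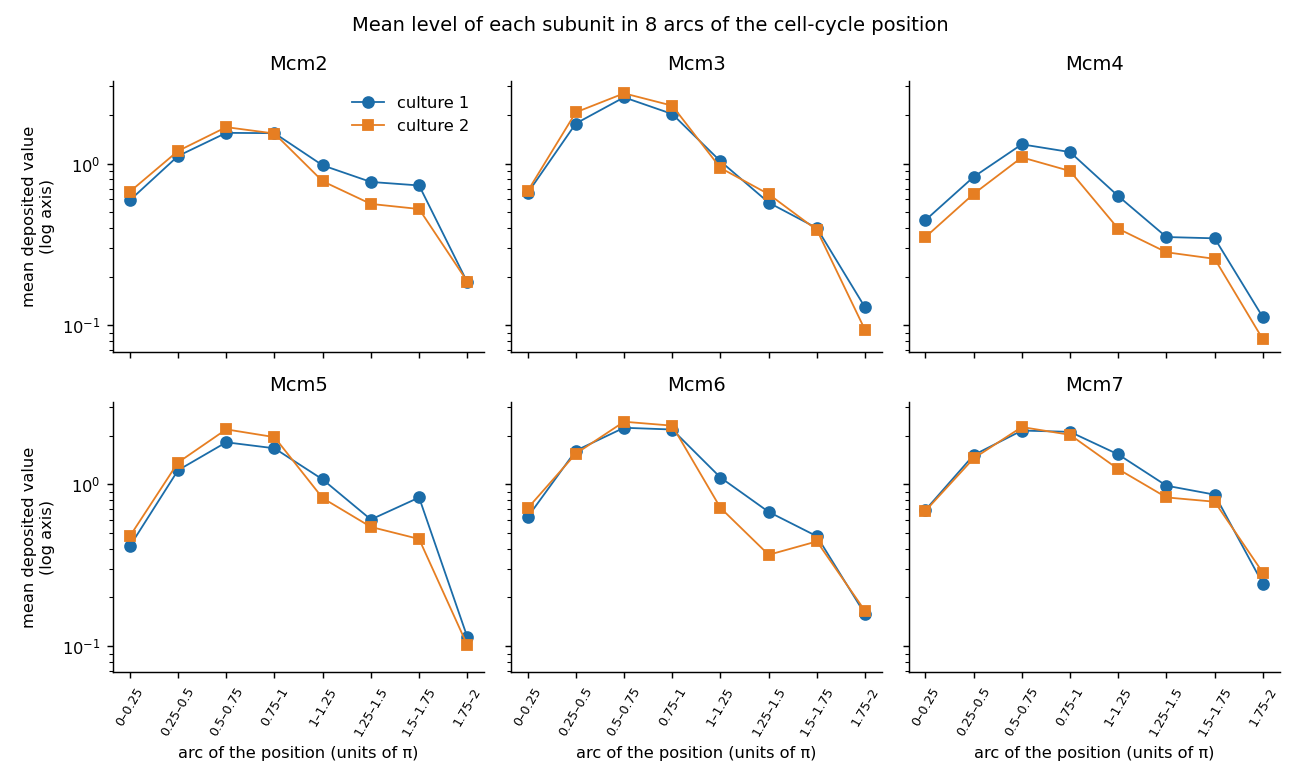
Mean deposited value of each subunit on a log axis in 8 arcs of the cell-cycle position, 1 panel per gene, with circles for culture 1 and squares for culture 2. Every curve is highest in the arc from 0.5π to 0.75π and lowest in the last arc. For Mcm2, Mcm6 and Mcm7 in culture 1, the arc from 0.75π to 1π is nearly as high.

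The lines had their lowest points, as means of both cultures, between 1.69π and 1.7675π, near the start of the arc with the lowest means. The arc from 1.5π to 1.75π held only 64 and 189 cells, and there the summed value was still 3.65 in culture 1 and 2.86 in culture 2. The line of Mcm3 went below 0 at its lowest point, to -0.02 and -0.03 on the log2 scale, which no value can do, so the bottom of the lines is less reliable than the arc means.

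After the highest arc, the subunits kept different shares of their highest mean. Between 1π and 1.25π, where nearly all cells were G2M, Mcm7 still had 71.2% of its highest arc mean in culture 1 and 54.9% in culture 2. Mcm2 had 63.0% and 46.3%, and Mcm5 58.9% and 37.6%. Mcm3 had 40.3% and 34.6%, Mcm4 47.9% and 36.2%, and Mcm6 49.3% and 29.3%. Mcm7 was thus the subunit with the largest share left in both cultures. The position at which the line had come halfway down was 1.36π and 1.21π for Mcm7 and lay between 1.08π and 1.29π for the other subunits.

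At the span of 0.3, the only one for which halfway positions up and down were taken, the rise was tighter. The lines passed halfway up from 0.199π to 0.251π in culture 1, and from 0.235π to 0.277π in culture 2. Mcm3 was first in both cultures. Mcm5 in culture 1 and Mcm7 in culture 2 were last, the latter only just behind Mcm5.

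As a result, the mix of subunit transcripts changed along the cycle. Each captured transcript is counted once by its 3′ end, so values were not divided by transcript length, and whether capture is equal between the genes was not tested. Mcm7 made up 18.5% and 18.3% of the summed value of the 6 genes in the highest arc. It made up 24.1% and 25.4% from 1π to 1.25π, and 25.8% and 31.2% in the lowest arc. Mcm3 went the other way, from 22.0% and 21.9% in the highest arc to 13.7% and 10.2% in the lowest. The share of Mcm2 was 13.3% and 13.6% in the highest arc, and 19.6% and 20.4% in the lowest. Mcm4 had the smallest share over all cells, with 10.9% and 8.55%. Between the highest and the lowest arc, the differences in the shares of Mcm7, Mcm3 and Mcm2 had the same direction in both cultures and were larger than the differences between the cultures within an arc.

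**Figure D3:**
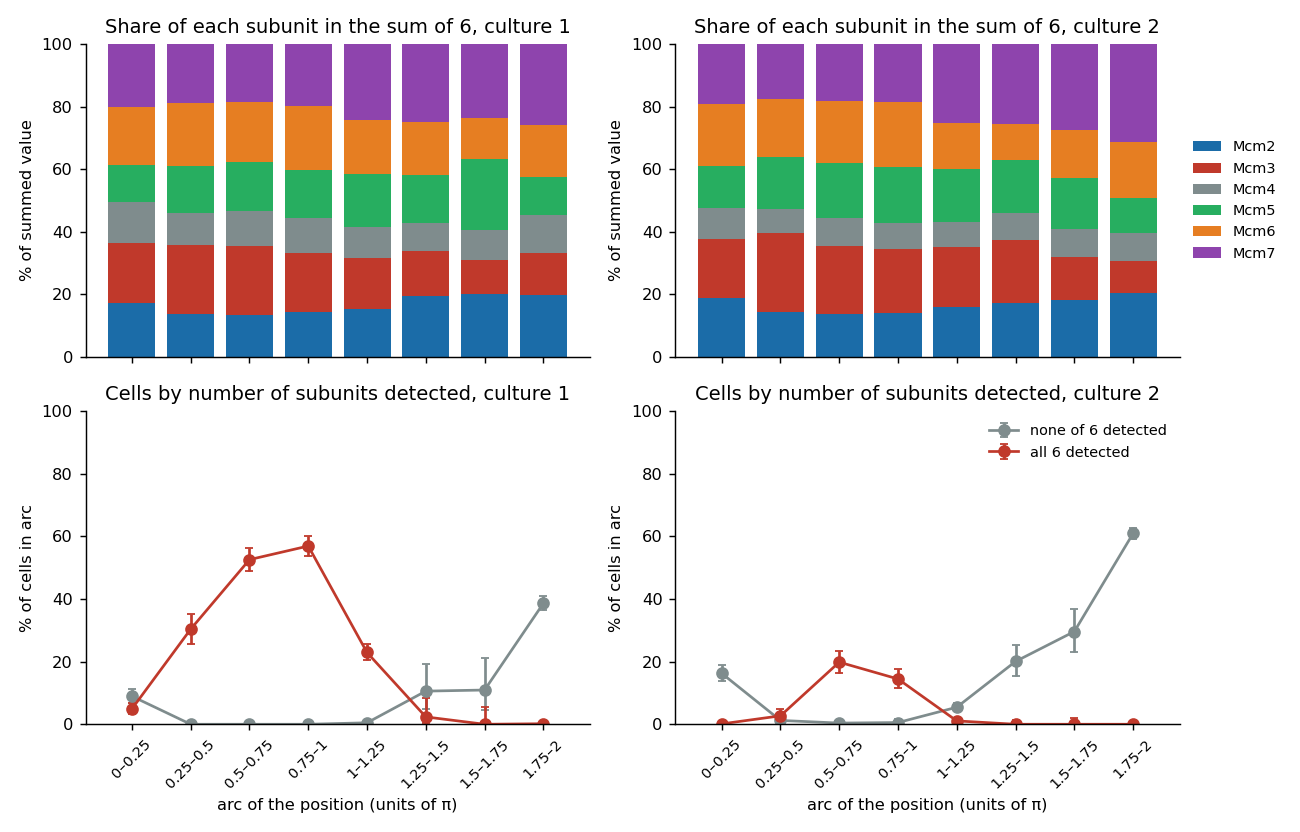
Upper panels show the share of each subunit in the summed value of the 6 genes in each arc, and lower panels the percentage of cells in which none or all of the 6 were detected, with exact 95% binomial intervals, for culture 1 on the left and culture 2 on the right. The share of Mcm7 widens after 1π, and cells without any subunit reach 38.6% and 61.0% in the last arc.

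Detection in single cells was highest between 0.5π and 1π. Over all cells, between 49.3% (Mcm4) and 64.3% (Mcm7) of cells in culture 1 had a value above 0, and between 22.3% and 37.1%, for the same genes, in culture 2. Between 0.5π and 0.75π, Mcm3 was detected in 95.5% of cells in culture 1 (exact 95% binomial interval 93.7% to 96.9%) and in 79.0% in culture 2 (75.3% to 82.4%). Between 1.75π and 2π it was detected in 14.9% (13.3% to 16.6%) and 5.05% (4.31% to 5.87%). Mcm7 was detected in 91.3% and 76.5% of cells in the former arc and in 23.9% and 15.5% in the latter. In the arc from 0.75π to 1π, where median depth was highest in culture 1 with 22966.5 UMIs, more cells of that culture had Mcm2, Mcm6 and Mcm7 than in the arc before. These shares were 88.1%, 94.7% and 94.96%, against 82.8%, 92.9% and 91.3%. In culture 2 this held for Mcm6 alone, with 78.0% against 76.9%. These intervals cover counting error only. No cell type without the genes was at hand to measure free RNA, so the shares in the last arc may include it, which was not tested.

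All 6 subunits were detected together in 52.6% of the 709 cells of culture 1 and in 19.8% of the 524 cells of culture 2 between 0.5π and 0.75π. In the next arc the share was 57.0% of 992 cells and 14.5% of 546 cells. Between 0.5π and 0.75π, none was detected in 0 of the 709 cells, which allows up to 0.519% by the exact interval, and in 0.382% of the 524. Between 1.75π and 2π, none was detected in 38.6% of 1789 cells and in 61.0% of 3149 cells. The latter arc held 31.1% of the cells of culture 1 and 44.6% of those of culture 2.

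Median depth also moved along the position. It was 20253 and 15726.5 UMIs between 0.5π and 0.75π and 18437 and 13991 between 1.75π and 2π, a far smaller difference than that of the subunits. Among cells with 12000 to 20000 total UMIs only, the summed value was 13.0 and 12.7 in the former arc and 0.968 and 0.868 in the latter.

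The cultures differed in the subunits in a way that depends on the scaling. The mean values were 1.35-fold (Mcm2) to 1.82-fold (Mcm4) higher in culture 1 over all cells, of which culture 2 had more in the lowest arc. Between 0.5π and 0.75π the direction turned for 5 of the 6, with mean values of 1.82 in culture 1 and 2.19 in culture 2 for Mcm5, and it did not for Mcm4, with 1.32 and 1.09. However, the deposited values step in multiples of what 1 UMI is worth for a gene in a culture, and that worth was 1.47-fold to 1.71-fold larger in culture 2 for the 6 subunits, relative to the median gene of each culture. Over 7631 genes with a measurable step, the median ratio was 1.001 with quartiles of 0.884 and 1.14. Counted in estimated UMIs per 10000 total UMIs, the subunits were 2.02-fold (Mcm2) to 2.80-fold (Mcm4) higher in culture 1. Among cells with 12000 to 20000 UMIs between 0.5π and 0.75π, the 6 genes together gave 14.5 estimated UMIs per cell in culture 1 and 8.35 in culture 2. For all members but Mcm4, 90.9% to 96.2% of values lay within 0.1 of a whole multiple. For Mcm4 this was 75.8% and 59.5%, and 19.6% and 37.3% lay at 0.5 of a UMI. With 1 library per culture, culture and library cannot be told apart. A gene's ratio between arcs of 1 culture does not depend on this scaling, whereas its share of the summed value does. Mcm7 made up 20.7% and 21.4% of the summed value over all cells, and 20.7% and 20.8% of the estimated UMIs.

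The deposited stages gave a second view. In the Seurat stages, all 6 subunits were higher in S than in G1 by at least 0.5 in mean log2(value + 1) in both cultures, where 0.909% of all genes were. The difference was 1.295 and 1.23 for Mcm3, 1.21 and 1.10 for Mcm6, 1.09 and 0.93 for Mcm7, 1.08 and 1.05 for Mcm5, 0.85 and 0.83 for Mcm2 and 0.78 and 0.58 for Mcm4. For S minus G2M, Mcm3 alone passed this size in both cultures, with 0.58 and 0.70, where 0.0281% of all genes did. For G2M minus G1, Mcm3 and Mcm7 did, with 0.72 and 0.53 for Mcm3 and 0.91 and 0.55 for Mcm7, where 1.32% of all genes did. The S list of Seurat holds 4 of the subunits, so these differences are not independent of the stage calls, but neither published version of that list holds Mcm3.

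SchwabeCC, a method with 5 stages, split the cells differently. It left 2451 cells of culture 1 and 3151 of culture 2 without a stage. The authors write that many of its labels are missing and that it places G0/G1 cells in other stages. The summed value of the 6 genes was 3.45 and 2.43 in its G2 stage, beside 3.33 and 2.31 in M.G1. In G2M by Seurat this sum was 6.99 and 4.87. Which cells the G2 and G2.M stages of SchwabeCC hold was not tested. The stage gene lists of SchwabeCC were not checked here and may hold subunits, so the differences below may not be independent of its calls. Against M.G1, 5 of the 6 subunits were higher in G1.S by at least 0.5 in both cultures, where 0.403% of all genes were, and Mcm4 was higher by 0.63 and 0.45. G1.S minus S was small in all subunits, from -0.03 for Mcm7 in culture 1 to 0.31 for Mcm2 in culture 2, and none passed the size, which 0.00938% of all genes did. For G1.S minus G2.M, 4 of the 6 passed it, where 0.216% of all genes did, and Mcm4 (0.58 and 0.42) and Mcm7 (0.63 and 0.46) missed it in culture 2. Mcm7 was the only subunit whose mean was higher in S than in G1.S in a culture, and that held in culture 1 alone. For S minus G2, Mcm3 (0.85 and 0.57) and Mcm6 (0.69 and 0.57) passed the size in both cultures, where 0.188% of all genes did. By the cyclone stages, which use all 6 genes and called only 133 and 56 cells S, Mcm5, Mcm6 and Mcm7 passed between S and G1, where 0.825% of all genes did.

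Cells with more of a subunit also had more of the others. Across the 5748 cells of culture 1, Pearson's r of log2(value + 1) over the 15 pairs had a median of 0.438, from 0.355 for Mcm2 and Mcm4 to 0.539 for Mcm3 and Mcm6. Across the 7057 cells of culture 2 the median was 0.290, and these pairs were again the lowest and the highest, with 0.232 and 0.405. Over 258 pairs of a subunit with another replication gene, the medians were 0.266 and 0.192. The highest of these, 0.585 for Mcm6 and Pcna in culture 1 and 0.445 for Mcm3 and Tipin in culture 2, exceeded all pairs of subunits. After the loess line of the position and total UMIs had been taken out, the medians of the 15 pairs were 0.0896 and 0.0536. Those of the 258 pairs were 0.0263 and 0.0177. In sparse counts such values are weak, and cells share library and depth. Within the arc from 0.5π to 0.75π the medians of the 15 pairs were 0.0995 over 709 cells and 0.103 over 524 cells. The correlations between subunits were thus lower among cells of like position than over the whole cycle.

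Other genes of DNA replication were read with the same rule. Of the MCM relatives outside the ring, Mcm10, a firing and fork factor, was called periodic with its maximum at 0.7175π and a height of 0.42 in culture 1 and 0.44 in culture 2 on the log2 scale. Mcm8 and Mcm9, which form a helicase of recombination repair, and Mcmbp, a binding partner of the MCM subunits, were not called, with lower R² values of 0.0391, 0.00256 and 0.0304. Mcm8 and Mcm9 were detected in at most 11.3% of cells in a culture, and Mcmbp in 41.4% and 31.5%. Whether a course of Mcm8 and Mcm9 could be detected at this depth was not tested. The lines of Mcm8 had their maxima at 0.845π and 0.805π, those of Mcmbp at 0.7π and 0.655π and those of Mcm9 at 0.655π and 0.49π (culture 1, then culture 2). Not being called is thus a statement about the R² threshold and does not show that a gene has no course.

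Of the genes for origin recognition and loading, 3 of 8 were called. The loading factor Cdc6 peaked at 0.545π, before all subunits, with maxima of 0.535π and 0.555π in the cultures. Gmnn, the inhibitor of loading, peaked at 0.7675π, after all of them at this span, with a lower R² of 0.436. Orc3 and Orc4 were lowest in the list, with lower R² values of 0.000848 and -2.77e-05, the latter a fit no better than the mean. Cdt1 was not analysed here.

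Of the genes for helicase activation, 9 of 11 were called, with a median maximum of 0.7475π against 0.6825π for the subunits. The median of the subunits was 0.7325π with a span of 0.1 and 0.71875π with a span of 0.5. Maxima of genes outside the subunits were taken at the span of 0.3 alone, so their order with the subunits at other spans is not known. Gins2, a GINS subunit, had the largest lower R², 0.340, and peaked at 0.7475π. Dbf4, the activator of the kinase Cdc7, peaked late, at 1.1075π, while Cdc7 itself and Mtbp were not called, with lower R² values of 0.0431 and 0.0240.

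Of the replication fork genes, 22 of 24 were called, with a median maximum of 0.72875π and a range from 0.5725π to 0.9225π. Tipin, of the fork protection complex, and the ligase gene Lig1 had the largest lower R² values, 0.498 and 0.425, both above that of Mcm3. Pold2 and Rpa3 were not called, with 0.0451 and 0.0349. Among E2F and RB regulators, 7 of 17 were called. E2f1 peaked at 0.6425π and Mybl2 at 0.73π, while Rbl2 and Lin52 had lower R² values of 0.000562 and 0.000713. The S phase genes Ccne2, Ccne1 and Cdk2 were all called, with maxima at 0.6375π, 0.665π and 0.6825π, within the range of the subunits except for Ccne2. All 7 mitotic genes were called and peaked between 0.99π and 1.3525π. Cenpa and Cdc20 had the largest lower R², 0.679 and 0.652, and Cdk1 and Aurka the smallest, 0.533 and 0.404. These shares stand beside 3.9% of all genes, and the lists were chosen as cell-cycle genes.

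**Figure D4:**
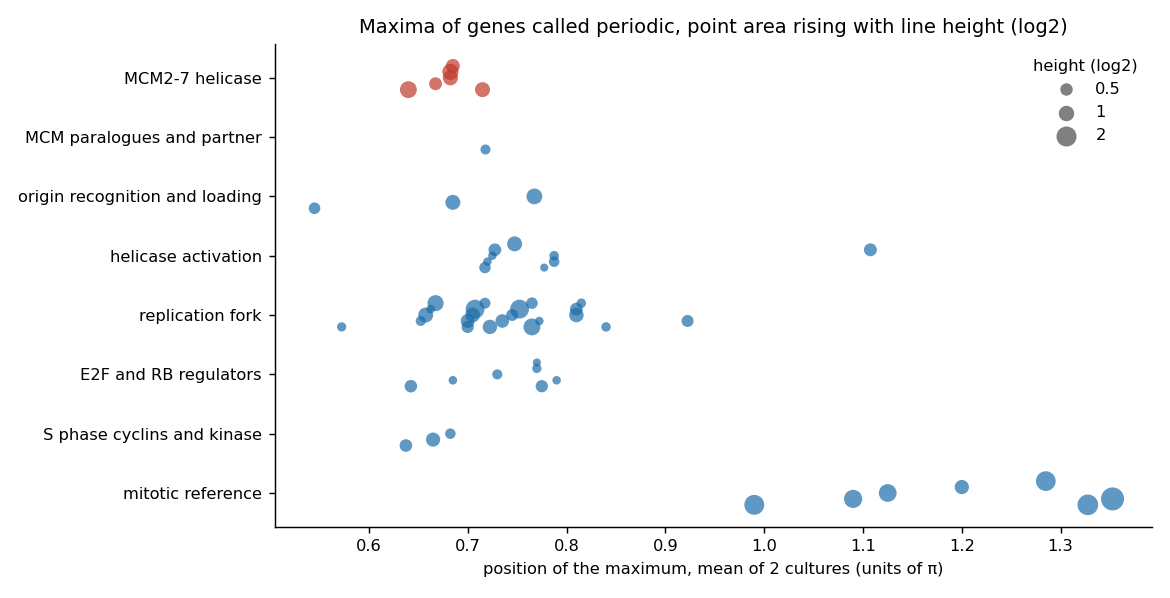
Position of the maximum, as the mean of both cultures in units of π, for the genes of each list that were called periodic, with the point area rising with the height of the line on the log2 scale. The 6 subunits stand between 0.64π and 0.715π, the helicase activation genes mostly after them and the mitotic genes from 0.99π on.

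The genes with the course most like the mean of the 6 subunits were ranked by the lower of the cultures' Pearson r across the means of 16 arcs, among 410 other genes called periodic. The arcs share libraries and held as few as 25 and 83 cells. The first 10 were Tipin, Atad2, Prim1, Rpa2, Fam111a, Rmi2, Exo1, Eri1, Umps and Uhrf1, with a lower r from 0.970 down to 0.963. Tipin, the primase subunit gene Prim1 and the single-strand binding protein gene Rpa2 are fork genes of the lists, Exo1 encodes an exonuclease and Uhrf1 a factor of maintenance DNA methylation. Of the 410 genes, 20 reached a lower r of 0.95. Pcna had 0.943 and Top2a 0.610, and each subunit had between 0.961 (Mcm5) and 0.987 (Mcm6) with the mean that contains it.

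Markers of cell types were summed in the same arcs. The summed value of the 5 progenitor markers ranged from 131 to 144 over the arcs of culture 1 and from 117 to 142 over those of culture 2. Most of this sum came from Fabp7 and Vim. Over all cells, their means were 91.9 and 29.9 of a sum of 137 in culture 1, and 90.7 and 29.6 of 134 in culture 2. The sum of the neuroblast and neuron markers Dcx and Gad1 was low throughout, from 0.0673 to 0.150 and from 0.0197 to 0.160. The oligodendrocyte lineage markers Olig2, Cspg4, Pdgfra and Sox10 summed to 4.45 to 6.90 and 4.55 to 6.86, lowest from 0.75π to 1π. Nearly all of this sum was Olig2, with means over all cells of 5.71 and 5.57, against 6.00 and 5.92 for the sum. The astroglial markers Aldh1l1 and S100b summed to 0.672 to 1.38 and 0.604 to 1.01, highest from 1.75π to 2π. The part of these cells in the course of the subunits was not tested.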

How the data were processed

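The 2 cultures were profiled with a droplet 3′ single-cell kit, version 2 by the labels and version 3 by the study's methods. The authors quantified spliced counts with Alevin (Salmon 1.3.0) on GRCm38, removed outlying cells and those with high doublet scores, and divided by cell depth. They also integrated the 2 cultures with Seurat 3.2.2, and the space behind the position was learned from integrated data. The deposited expression values are a linear signal whose worth of 1 UMI also differs by gene and culture. Total UMIs, as deposited, add up the estimated counts of a cell, and the deposited position and stages were used as given. No cell was removed here, and no count model or thinning was applied, since the values used here are not counts. Doublets were not called again. Depth sets how firmly low values can be read, and values near 1 UMI are more precise in culture 1.

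The lines are periodic loess fits (degree 2, span 0.3, 401 grid positions) of log2(value + 1) in each culture, run over all 10666 genes, with the lower R² compared with 0.05. Cells were repeated in the period before and the period after, and the span is a share of this larger set. At 0.3, each point of a line thus draws on most cells of its culture, with less weight further away. Values are means of the cultures or are given for both. SDs rest on 2 cultures and may be technical. Stage differences were compared with 0.5. For the alternative position, 500 genes were taken from the lists of Seurat 5.3.0 and scran 1.30.0. Python 3.11.15, numpy 2.4.6, scipy 1.17.1 and pandas 2.3.3 were used, the fit was tested on simulated data, and coordinates are from GENCODE vM21. Symbols were found for 10662 genes. The subunits, the gene lists and the alternatives were chosen with earlier results of these data known. Named genes are the subunits and their relatives, up to 2 genes with the largest and 2 with the smallest lower R² of each list, the 10 most alike, Pcna and Top2a, and cell type markers, of which the telencephalic list is not reported here. Alternatives were other spans, a pseudocount of 0.1, linear values, another position, a depth window, values rescaled by total UMIs, other thresholds, a filter on low genes, a depth term and each culture left out.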

Additional observations from a re-analysis of the deposited data

How the results depend on the processing

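All 6 subunits were called under every alternative run. The count of genes called was 853 with an R² threshold of 0.02 and 232 with 0.1, against 416, and ranged from 441 to 576 with a culture left out. The median position of the maxima was 0.7325π with a span of 0.1 and 0.71875π with a span of 0.5, against 0.6825π, and 0.6575π to 0.705π with a culture left out. The spread of the maxima was 0.2π with a span of 0.5 and 0.055π to 0.095π with a culture left out. Mcm3 was earliest, ties included, in 11 of 11 alternatives and Mcm7 latest in 10, the exception being Mcm2 with a span of 0.1. The median height, 1.29 on the log2 scale, was 1.36 with a span of 0.1, 0.96 with a span of 0.5, 3.34 with a pseudocount of 0.1, 1.95 in linear values, 1.23 with the position without the subunits, 1.37 within the depth window, 1.34 after multiplication by total UMIs and 0.90 in estimated UMIs, an alternative added after the data were seen, and ranged from 1.25 to 1.32 with a culture left out. The summed value between 0.5π and 0.75π was 13.0-fold that between 1.75π and 2π. It was 11.4-fold with the position without the subunits, 14.1-fold within the depth window, 14.3-fold after multiplication by total UMIs and 12.4-fold to 13.6-fold with a culture left out. The median correlation, 0.364 as the mean of the cultures, ranged from 0.290 to 0.438. The causes of these shifts were not tested. No paired analysis was possible because there is 1 condition. Depth limits what can be said of single cells between 1.75π and 2π, where the 6 genes gave 1.16 and 0.543 estimated UMIs per cell.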
